A study of Drosophila melanogaster with 7 samples.

Results

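The centromere-proximal ends of 4 chromosome arms were described from the peaks of 6 ChIP-seq lists. Members were all peaks whose midpoint lay in fixed windows of the dm3 assembly: on 2L above position 20500000, on 3L above 22000000, on 3R below 1000000 and on X above 21000000. A stretch of 217861 bp on 2L, from 21762696 to 21980556, was left out. The windows held 3373 of the 74390 peaks in the 6 lists, 1024 of them on 2L, 1045 on 3L, 595 on 3R and 709 on X. Members were taken by position. The windows themselves were proposed with earlier results of these data known, and no reason is given for leaving out the stretch of 2L, which holds 170 H3K27me3 peaks.

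Wing imaginal discs, the sacs of larval epithelium from which the adult wing forms, came from Drosophila melanogaster larvae in the third instar. No genotype or treatment is given in the labels. All libraries are compared as if from the same untreated discs, which the labels do not show. There was 1 library for each of ASH2, H3K4me3, H3K27me3, H3K36me3 and RNA polymerase II phosphorylated at serine 2 (Ser2P) or serine 5 (Ser5P), while the input was not analysed here. ASH2 is the target named in that library's label, but the antibody listed for it carries the catalogue number of one against the HA tag, and no tagged line is described. Without replicates there is no replicate error. The lists hold no reads or peak scores, so sequencing depth is unknown, and the absence of a peak does not show that the mark is absent. Assembly gaps and bases where reads cannot be placed were not examined, and all densities and covers count such bases. Whole discs were used, so a mark in fewer cells and less of it per cell cannot be told apart.

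Chromosome arms pass towards their centromere from gene-rich euchromatin into pericentric heterochromatin, which is rich in repeats, carries methylation of histone H3 at lysine 9 and binds HP1. Genes do lie in Drosophila heterochromatin, and some need that setting for normal expression. Of the targets here, H3K4me3 marks active promoters, and ASH2 is a trithorax group subunit of the complexes that write H3K4 methylation. Ser5P is the polymerase form found around promoters, whereas Ser2P and H3K36me3 mark elongation through gene bodies. H3K27me3 is the Polycomb mark of silenced developmental genes. None of the targets is a mark of pericentric heterochromatin itself, so where heterochromatin begins was not measured.

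The 4 windows together spanned 7.22 Mb, beside 90.4 Mb in the rest of the same arms. By window they spanned 2.26 Mb on 2L, 2.54 Mb on 3L, 1 Mb on 3R and 1.42 Mb on X. The outermost members lay 2213 to 237148 bp inside the borders with widths of 0 to 3697 bp, over the 24 combinations of list and window. The nearest peaks outside lay 454.5 to 126398 bp away with widths of 5 to 3386 bp. A base with no peak of any list was commoner near the centromere: 84.1% of the windows and 73.8% of the rest lay outside all 6 lists. The share was 84.1% on 2L, 87.2% on 3L and 84.8% on X, but 75.0% on 3R, against 73.3 to 75.2% in the rest of these arms.

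Peaks of H3K4me3, the promoter mark, were sparse in 3 of the 4 windows. H3K4me3 had 31.8 peaks per Mb in the 2L window, 19.3 on 3L, 18.3 on X and 46.0 on 3R, where the rest of the arms had 46.9, 51.5, 47.4 and 51.1. Over all windows the 193 peaks came to 26.7 per Mb and the 4465 in the rest to 49.4, a ratio of 0.541 (95% exact interval 0.466 to 0.625, which covers the counting of peaks only). Each arm was also tiled with stretches as long as its window to show how much density varies within an arm. The 3L and X windows held fewer H3K4me3 peaks per Mb than any of the 8 and 14 stretches of their arms, which ranged from 37.5 to 63.9 and from 23.2 to 89.3. The 2L window was above 2 of 9 stretches and the 3R window above 13 of 26, so both lay within the range of their arms.

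The marks of elongation were likewise sparse on 2L, 3L and X and closer to the arm on 3R. H3K36me3 had 28.3 peaks per Mb on 2L, 11.4 on 3L, 16.2 on X and 46.0 on 3R, against 48.6, 51.8, 42.2 and 47.1 in the rest. Its ratio over all windows was 0.473 (0.401 to 0.553). Ser2P had 19.9 peaks per Mb on 2L, 15.8 on 3L, 8.44 on X and 34.0 on 3R, against 41.8, 45.7, 34.0 and 36.1, and its ratio was 0.462 (0.385 to 0.551). For these lists the 3L and X windows lay below every stretch of their arms. The 2L window lay above 2 of 9 stretches for each. On 3R, H3K36me3 exceeded 13 of 26 stretches and Ser2P 7 of 26.

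Ser5P, the promoter form of the polymerase, had a ratio of 0.634 (0.530 to 0.752). It had 21.2 peaks per Mb on 2L, 16.2 on 3L and 11.3 on X, against 31.4, 31.3 and 30.6 in the rest, and 34.0 against 28.7 on 3R. The 3L window lay below all 8 stretches of its arm and the X window above 1 of 14. The 3R window exceeded 18 of 26 stretches.

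Over all windows, ASH2 peaks kept nearly the density of the arms. There were 277 per Mb on 2L, 228 on 3L, 314 on 3R and 219 on X, against 272, 288, 264 and 247 in the rest. The ratio over all windows was 0.947 (0.902 to 0.993), and it was 1.02 when the 3L window and its arm were left out. The 3L window lay below all 8 stretches of its arm, whereas the 3R window lay above 25 of 26 and the others lay in between. In the same windows where H3K4me3 was at 0.375 and 0.386 times the density of the arm, on 3L and X, ASH2 was at 0.791 (0.725 to 0.861) and 0.885 (0.787 to 0.992). On 3R the ASH2 ratio of 1.19 became 0.939 when the border was set 500 kb nearer the centromere.

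The Polycomb mark H3K27me3 had fewer peaks per Mb on 2L, 3L and 3R and was close to its arm on X, whereas its base cover was lower in all 4 windows. It had 73.7 peaks per Mb on 2L, 122 on 3L, 121 on 3R and 226 on X, where the rest had 154, 170, 235 and 245. The ratio over all windows was 0.625 (0.585 to 0.668). The 2L and 3L windows lay below every stretch of their arms, the 3R window above 2 of 26, and the X window above 5 of 14. Among the 3R stretches, 1 held 0 H3K27me3 peaks, while ASH2 had 314 peaks per Mb there. It was counted in the rest of 3R, and why it is empty was not tested. The 2L value depends on the stretch left out: with it the 2L ratio was 0.884 in place of 0.480. By cover the mark was at 0.521 times the rest, with 3.97% of bases on 2L, 4.49% on 3L, 8.04% on 3R and 7.45% on X, against 9.64, 9.80, 11.03 and 10.84%. In cover the X window was above 1 of 14 stretches of its arm.

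**Figure D1:**
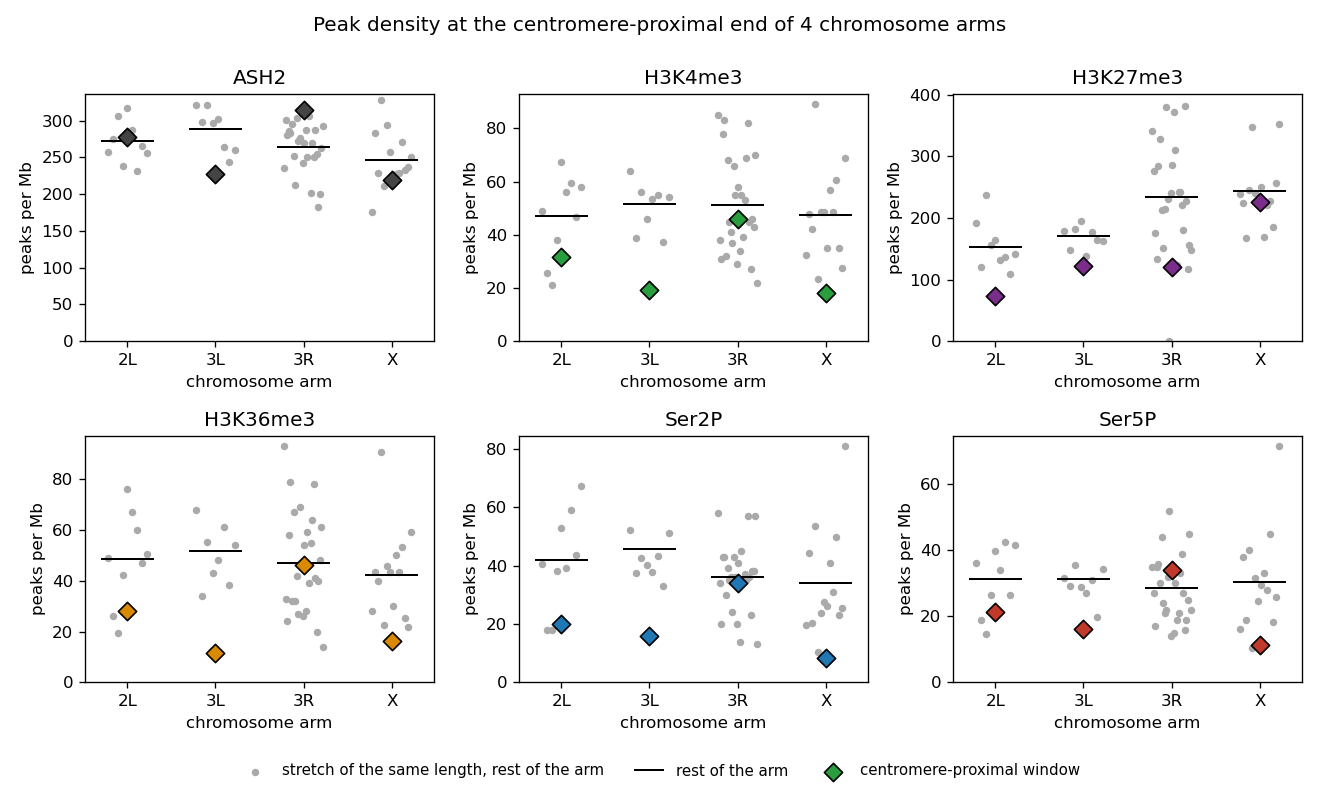
Peaks per Mb (y axis, linear from 0) for each of the 6 lists on the 4 arms (x axis). Diamonds are the centromere-proximal windows, grey points are stretches of the same length tiling the rest of the arm, and black lines are the mean of the rest; on 3L and X the diamonds of H3K4me3, H3K36me3 and Ser2P lie below all grey points, and those of ASH2 are at 228 and 219 per Mb, below all grey points on 3L and above 2 of 14 on X.

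Base cover does not count peaks, but it leaves out the gaps where a broad region is broken into pieces. It kept ASH2 nearest to the rest and Ser2P farthest below it, while H3K27me3, above H3K4me3 by density ratio, came below it by cover ratio (0.521 against 0.550). ASH2 covered 7.33% of the windows and 8.51% of the rest, a ratio of 0.861. The ratio was 0.701 for Ser5P (1.91 against 2.73%), 0.550 for H3K4me3 (2.40 against 4.36%), 0.466 for H3K36me3 (3.46 against 7.42%) and 0.441 for Ser2P (1.87 against 4.24%). On 3R the cover ratios were 1.31 for Ser5P, 0.977 for H3K4me3, 0.945 for H3K36me3 and 0.967 for Ser2P. On X they were 0.437, 0.420, 0.390 and 0.273. The ASH2 cover ratio was 1.01 on 2L and 1.10 on 3R, but 0.715 on 3L and 0.701 on X. In ASH2 cover the 3L window lay below all 8 stretches of its arm and the X window above 1 of 14.

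Within the windows the decline was steepest at the innermost end of 3L. The last Ser5P peak of that arm, from 23087629 to 23088330, lay 1447 kb from the end of the arm's peaks, and the last Ser2P peak, from 22870545 to 22871020, lay 1664 kb from it. Beyond that Ser5P peak, a cut chosen after the values were seen, the remaining 1.45 Mb held 286 ASH2 peaks, 118 H3K27me3 peaks, 16 H3K4me3 peaks and 2 H3K36me3 peaks. Per Mb these were 198 ASH2, 81.6 H3K27me3, 11.1 H3K4me3 and 1.38 H3K36me3 peaks. Between the border and that point the window had 268 ASH2, 175 H3K27me3, 30.3 H3K4me3, 24.8 H3K36me3, 36.8 Ser2P and 37.7 Ser5P peaks per Mb. The inner part has no Ser5P or Ser2P peak by the way it was cut, and the cut also raises the polymerase density of the outer part, so neither is a result. The cut also keeps H3K4me3 and H3K36me3 peaks that overlap Ser5P out of the inner part, so their inner values are partly set by it.

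The 16 inner H3K4me3 peaks of 3L were narrow. Their median width was 194 bp, against 974 bp for the 33 peaks nearer the border, and 6 of the 16 were under 100 bp. Of the 33, 23 overlapped Ser5P, and the cut keeps such peaks out of the inner part. How much of the width contrast follows from that was not tested. ASH2 overlapped 13 of the 16 and H3K36me3 none of them, and the cut leaves no polymerase peak to overlap. The widest, from 23142470 to 23143369 (900 bp), was covered over 88.7% by ASH2. The next, from 23602174 to 23602926 (753 bp), had no ASH2 and was covered over 41.6% by H3K27me3. Others of similar width, from 24224766 to 24225494 (729 bp) and from 23573160 to 23573856 (697 bp), were covered over 99.0% and 100% by ASH2. Among the inner ASH2 peaks, the share that met none of the other lists was 76.6% (95% exact interval 71.2 to 81.4). H3K27me3 was met by 18.5%. Nearer the border the share of ASH2 peaks without another list was 69.9% (64.2 to 75.1). There 13.7% of ASH2 peaks met Ser5P and 6.16% met Ser2P, lists that have no peak in the inner part. The 76.6% is therefore partly set by the cut, and how much of it was not tested. Among the inner H3K27me3 peaks 43.2% (34.1 to 52.7) held ASH2, while 19.5% (14.1 to 25.8) of those nearer the border did. The rest of 3L had 31.5%, between these shares, so part of the contrast lies in a low share near the border.

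On the other arms Ser5P peaks lay close to the end, and on 2L and X the last Ser2P peak lay farther from it. On 2L the innermost peaks of H3K4me3 (22959896 to 22961115), H3K36me3 (22959896 to 22960747) and Ser5P (22959930 to 22960723) lay together, 21.5 to 21.9 kb from the end. On X the innermost H3K4me3 (22415259 to 22416209), H3K36me3 (22415375 to 22416842) and Ser5P peaks (22414214 to 22416100) lay together 5.29 to 6.03 kb from the end, with an H3K27me3 peak from 22415593 to 22416043 inside them. The innermost Ser2P peak was 107 kb from the end on 2L (22874893 to 22875352) and 172 kb from it on X (22249393 to 22249827). On 3R the first Ser2P peak spanned 7792 to 8753, the first Ser5P peak spanned 102 to 1935, and the first H3K4me3 peak 371 to 864. Counts still thinned towards the end of 2L: its innermost 500 kb held 6 H3K4me3, 2 H3K36me3, 2 Ser2P and 3 Ser5P peaks, and the stretch from 1500 to 2000 kb held 23, 24, 10 and 19. ASH2 had 119 peaks in the innermost 500 kb of 2L and 160 in that stretch. The innermost 500 kb of 3R was no poorer in active marks than the next, with 31 against 15 H3K4me3 peaks and 36 against 10 H3K36me3 peaks.

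**Figure D2:**
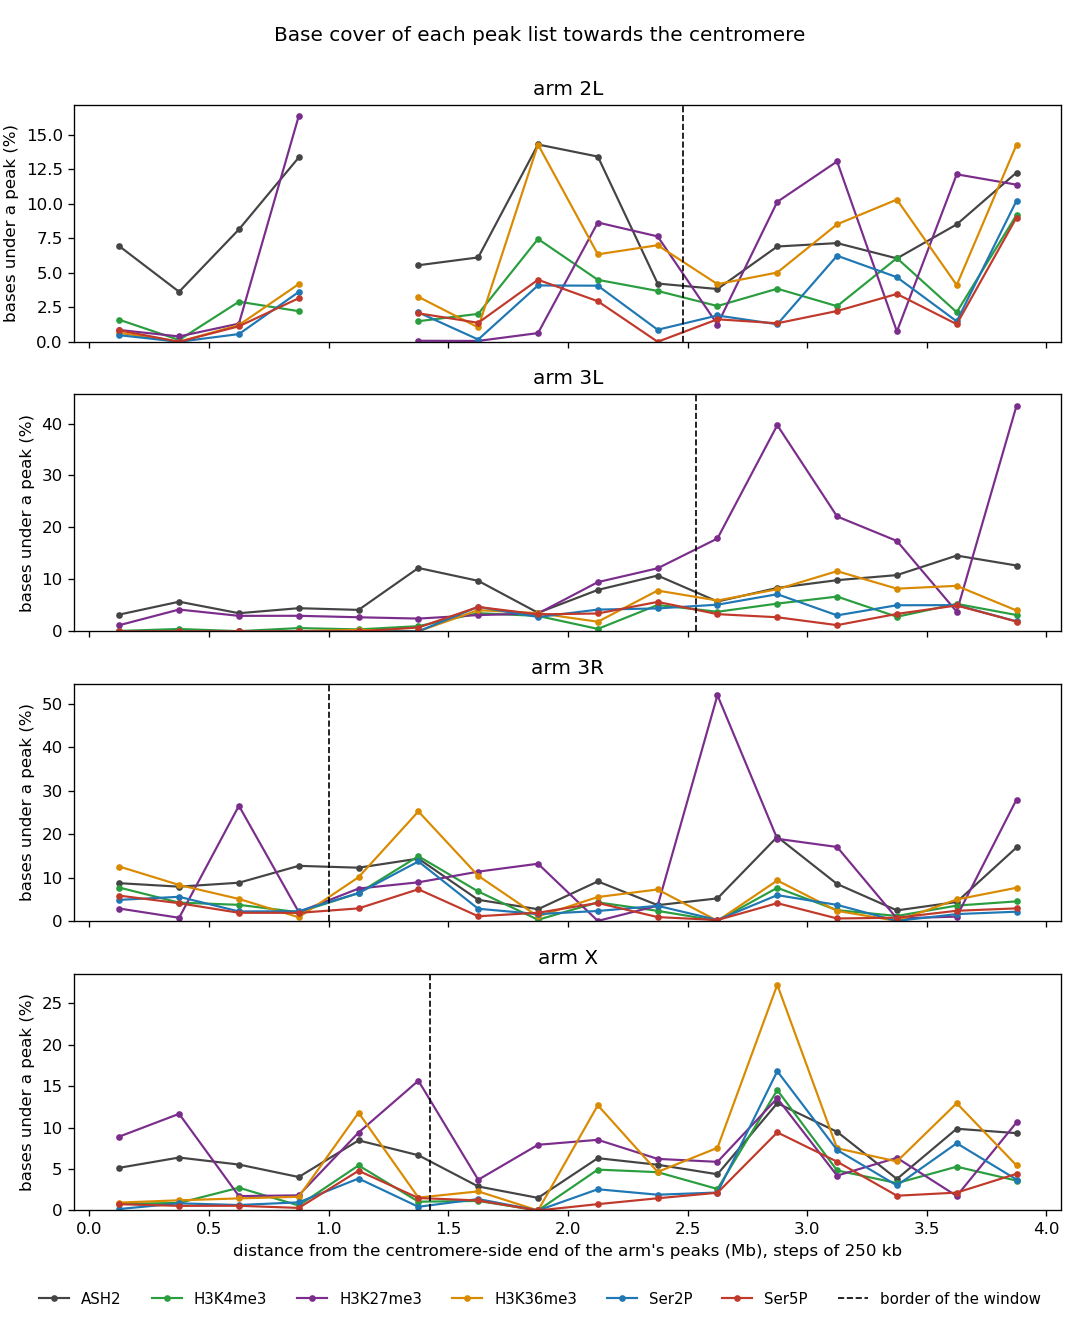
Percentage of bases under a peak of each list (y axis, linear, a scale of its own for each arm) in steps of 250 kb from the centromere-side end of the arm's peaks (x axis, Mb); the dashed line is the border of the window. On 3L the lines of Ser2P and Ser5P are at 0 in the innermost steps while ASH2 and H3K27me3 stay above 0; on 2L the step that is almost wholly in the left-out stretch is not drawn.

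Peak widths differed from those of the arms in different directions by list and window. Median widths in the windows and in the rest were 222 and 235 bp for ASH2, 912 and 842 bp for H3K4me3, 1341 and 1285 bp for H3K36me3, and 867 and 867.5 bp for Ser2P. For Ser2P the windows went opposite ways, with a difference in median, window minus rest, of -121.5 bp on 2L, 129 bp on 3L and 122.5 bp on 3R. For H3K36me3 this difference was 226 bp on 3L and -174.5 bp on 3R. For H3K4me3 it was 119.5 bp on 2L, 84.5 bp on 3R, 64 bp on X and -18 bp on 3L. Ser5P peaks had a median of 835 bp (95% interval of the median 718 to 913) against 686 bp (667 to 707). They were wider on 3L (945 against 662 bp), 3R (821 against 704 bp) and X (887 against 670 bp) and narrower on 2L (620 against 698.5 bp). H3K27me3 peaks had a median of 305 bp (293 to 319) against 332 bp (328 to 337), and were narrower in all 4 windows, by 6 bp on X and 94 bp on 2L. Peaks under 100 bp made up 30.1% of the ASH2 members and 29.4% of the ASH2 peaks in the rest. On 3L they made up 14.3% of the H3K4me3 members (7 of 49, against 1.68% in the rest) and 21.1% of the H3K27me3 members (against 11.1%).

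More ASH2 peaks stood apart from the other lists in the windows. Of the 1831 ASH2 members, 1288 overlapped no other list, or 70.3% (95% exact interval 68.2 to 72.4), beside 56.3% in the rest of the arms. The share was higher in all 4 windows, at 72.6% on 2L, 73.2% on 3L, 70.1% on 3R and 60.8% on X, where the rest of each arm had 55.3 to 57.1%. An exact Mantel-Haenszel test with arms as strata, two-sided and adjusted over 7 combinations of ASH2 and H3K27me3 peaks, gave an odds ratio of 1.83 (adjusted exact p = 5.98e-31). Peaks that lie side by side are not independent, so this and the later p-values understate the uncertainty between regions. All the other lists, H3K27me3 included, cover fewer bases over all windows than in the rest, as given above. How much of the higher share follows from that was not tested. Over all windows, lone ASH2 peaks also numbered more per Mb, 178 against 151 (ratio 1.18, 1.12 to 1.25). There were 201 on 2L, 167 on 3L, 220 on 3R and 133 on X against 152, 164, 146 and 141. The rise was thus on 2L and 3R, with 3L close to its arm and X below it. Their median width was 176 bp, against 159 bp in the rest.

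Fewer ASH2 members overlapped an active mark, by which is meant H3K4me3, H3K36me3, Ser2P or Ser5P. Active marks without H3K27me3 were met by 14.4% of ASH2 members and 22.6% of ASH2 peaks in the rest (odds ratio 0.580, adjusted exact p = 1.72e-16). The share was 16.2% on 2L, 11.1% on 3L, 20.1% on 3R and 11.2% on X, lower than the rest of the arm in 4 of 4 windows. Those peaks had a median width of 550 bp, and they came to 36.6 per Mb against 60.6. Active marks and H3K27me3 together were met by 0.765% against 2.24% (odds ratio 0.373, adjusted exact p = 7.31e-05). The active lists cover fewer bases in the windows, as given above, and how much of these differences follows from that was not tested.

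H3K27me3 at ASH2 peaks went different ways on different arms. H3K27me3 without an active mark was met by 14.5% of ASH2 members and by 18.9% in the rest (odds ratio 0.723, adjusted exact p = 2.45e-06). H3K27me3 also covers fewer bases in the windows, and how much of this difference follows from that was not tested. It was met by 10.5% on 2L, 14.9% on 3L and 8.92% on 3R, where the rest had 20.1, 19.0 and 19.1%, but by 27.3% on X, where the rest had 17.1%. The X window therefore lay above its arm while the other windows lay below theirs; the difference between the windows was not tested. With the left-out stretch of 2L kept, the shares were 17.6 and 18.9% and the difference no longer passed (adjusted exact p = 0.125).

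**Figure D3:**
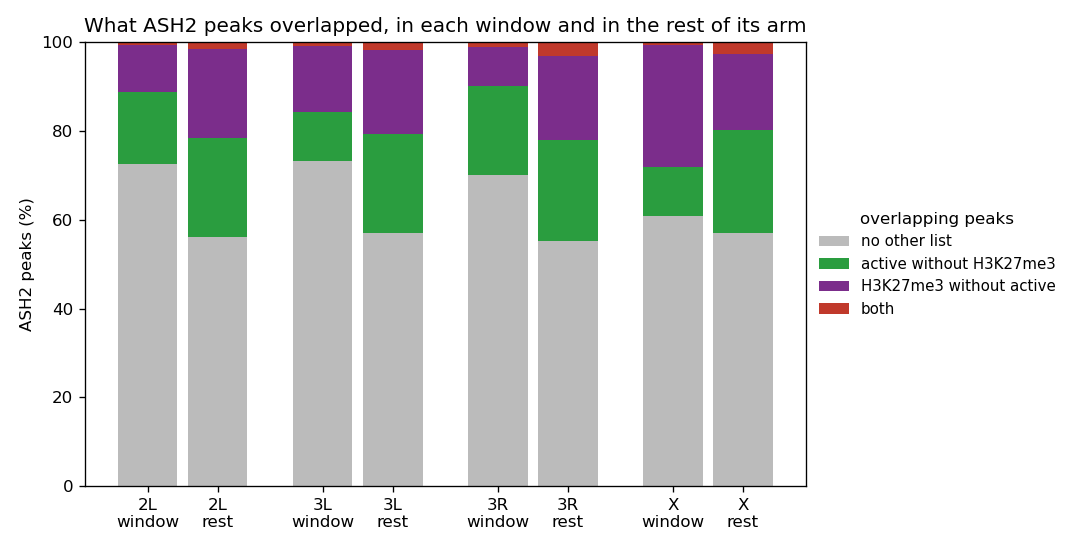
Share of ASH2 peaks (y axis, %) that overlapped no other list, an active mark without H3K27me3, H3K27me3 without an active mark, or both, for each window and the rest of its arm (x axis). The grey part, ASH2 with no other list, is 60.8 to 73.2% in the windows and 55.3 to 57.1% in the rest.

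For single marks, the ASH2 shares were lower for all 5 partners, each of which also covers fewer bases over all windows. H3K4me3 was met by 9.89% of ASH2 members and 16.1% in the rest (adjusted exact p = 6.65e-11, 30 ordered pairs of lists). H3K36me3 was met by 6.17% and 10.3% (adjusted exact p = 3.01e-08), and Ser2P by 3.71% and 7.67% (adjusted exact p = 2.94e-10). Ser5P was met by 7.70% and 11.2% (adjusted exact p = 1.56e-05). These active partners were met less often in 4 of 4 windows. H3K27me3 was met by 15.2% and 21.1% (adjusted exact p = 1.6e-08), less often on 2L, 3L and 3R but not on X. With the wider 50% of each list, none of the shares with the 4 active partners passed (adjusted exact p = 0.0683 to 0.739). With the first 50% of entries in each list, the calls with H3K4me3 (adjusted exact p = 0.0875) and H3K36me3 (0.596) were lost.

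Seen from the promoter mark, ASH2 was not less frequent over all windows. Of the 193 H3K4me3 members, 177 overlapped ASH2, or 91.7% (86.9 to 95.2), beside 85.4% in the rest (odds ratio 1.89, adjusted exact p = 0.0495). The share was 95.8% on 2L, 83.7% on 3L, 97.8% on 3R and 84.6% on X, against 85.1, 85.45, 86.3 and 84.1%. The higher share thus lay on 2L and 3R, with 3L below its arm and X close to it. The call was lost without the 2L window (adjusted exact p = 0.458), without the 3R window (0.263) and under 7 further alternatives (0.0574 to 0.721). Ser5P was present at 46.6% of H3K4me3 members (39.4 to 53.9) and 35.8% in the rest (odds ratio 1.55, adjusted exact p = 0.015), and higher in 4 of 4 windows. Without the 3R window the shares were 44.9 and 36.7% (adjusted exact p = 0.131), and without the 3L window 46.5 and 36.3% (0.0506). The call was also lost with the first 50% of entries (0.596) and when a partner within 500 bp counted (0.195).

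At H3K36me3 peaks Ser5P passed the test, but not under 5 of 14 alternatives. Ser5P was present at 24.1% of the 162 H3K36me3 members (17.7 to 31.4) and 14.9% in the rest (odds ratio 1.75, adjusted exact p = 0.0203). The share was 23.4% on 2L, 31.0% on 3L, 17.4% on 3R and 30.4% on X, above the rest of each arm. Without the 3L window it was 22.6% against 15.7% (adjusted exact p = 0.123). The call was also lost with the first 50% of entries (0.596), the wider 50% of each list (0.0683), borders 500 kb farther from the centromere (0.0878) and a partner within 500 bp (0.157). Ser2P was present at 29.6% of H3K36me3 members and 38.3% in the rest, which did not pass (adjusted exact p = 0.0558). H3K36me3 was in turn present at 37.8% of H3K4me3 members and 45.7% in the rest (adjusted exact p = 0.053), and this passed under 5 alternatives (adjusted exact p = 0.00133 to 0.0458), among them a partner within 500 bp. H3K4me3 with Ser2P, at 26.9 and 31.2%, passed with a partner within 500 bp (0.00336).

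One combination of marks at H3K4me3 members was picked after its values were seen, so it has no test. ASH2, H3K36me3 and Ser5P without Ser2P or H3K27me3 were found at 19 of the 193, or 9.84% (6.03 to 15.0), and at 116 of 4465 in the rest, or 2.60%. It was 9.72% on 2L, 8.16% on 3L, 8.70% on 3R and 15.4% on X, and 2.47 to 2.69% in the rest of these arms. Per base, ASH2, H3K4me3, H3K36me3 and Ser5P together without Ser2P or H3K27me3 covered 11.8 kb. This is 0.164% of the windows against 0.0659% of the rest, a ratio of 2.48. The other combinations of H3K36me3 and Ser5P without Ser2P or H3K27me3 also covered more than in the rest. H3K36me3 with Ser5P alone was at 1.66 times, with ASH2 added at 1.53 and with H3K4me3 added at 1.44. Most of the remaining combinations with H3K36me3 covered less, such as H3K36me3 with Ser2P alone at 0.345 times. The commonest combination at H3K4me3 members was ASH2 alone (50 peaks, 25.9%, against 22.1% in the rest), followed by ASH2 with Ser5P (31 peaks, 16.1%, against 13.9%).

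No share of the polymerase lists with a partner passed the test. Of the 139 Ser5P members, 91.4% held ASH2, 64.7% H3K4me3, 28.1% H3K36me3 and 35.3% Ser2P, and the rest had 88.0, 57.4, 23.1 and 43.4%. Of the 131 Ser2P members, 51.9% held ASH2, 39.7% H3K4me3, 42.7% H3K36me3 and 41.2% Ser5P, against 49.1, 39.8, 50.6 and 35.2%. H3K27me3 was present at 6.47% of Ser5P members and 12.4% of Ser5P peaks in the rest (odds ratio 0.539, adjusted exact p = 0.156), and at 6.87% and 13.5% of Ser2P peaks (odds ratio 0.518, adjusted exact p = 0.128). Without the X window both of these passed (adjusted exact p = 0.0458 each), as did Ser5P with H3K27me3 within 500 bp (0.00565). Ser5P with H3K4me3 passed with the borders 500 kb farther from the centromere (0.00107) and Ser2P with Ser5P with the borders 500 kb nearer (0.0104). For the 10 shares as defined above the adjusted exact p was 0.108 to 1, and with 131 and 139 peaks the intervals are wide. For H3K4me3 at Ser2P members the exact interval of the share was 31.3 to 48.6%.

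**Figure D4:**
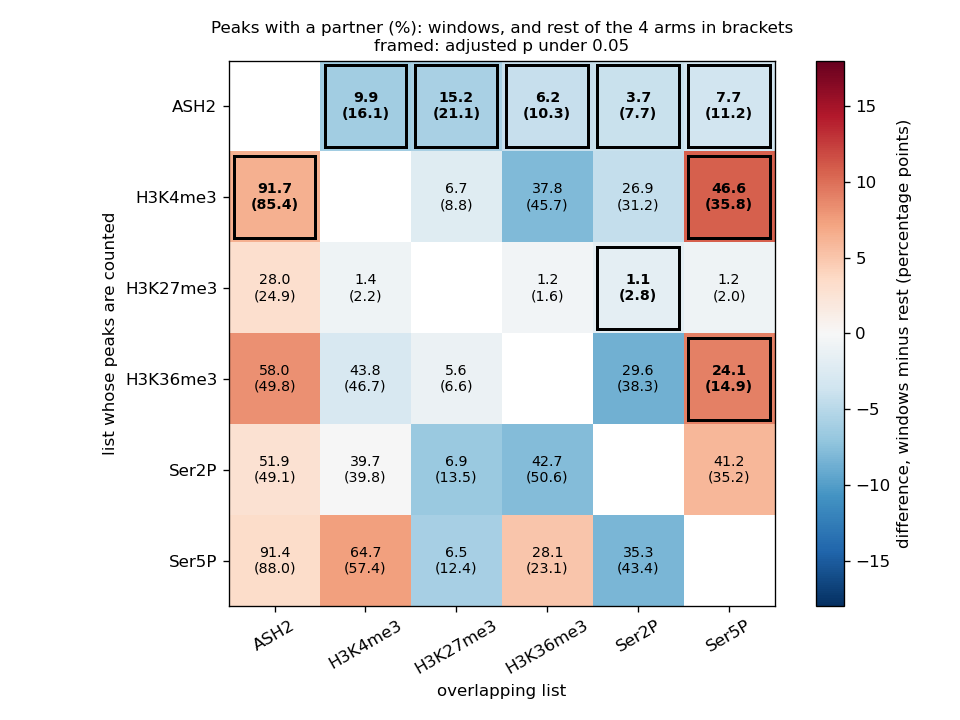
Share of each list's peaks (rows) that overlap each other list (columns), in percent, in the 4 windows and, in brackets, in the rest of the 4 arms; colour is the difference in percentage points, and frames mark an adjusted p under 0.05. The ASH2 row is lower throughout, while H3K4me3 with Ser5P is at 46.6 against 35.8% and H3K36me3 with Ser5P at 24.1 against 14.9%.

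Over all windows, H3K27me3 peaks met active marks less often, and these marks also covered fewer bases there. Any active mark was present at 3.16% of the 917 H3K27me3 members (29 peaks) and 5.55% in the rest (odds ratio 0.582, adjusted exact p = 0.00482). It was lower on 3L (3.25 against 4.59%), 3R (2.48 against 6.25%) and X (2.49 against 6.21%), but higher on 2L (4.79 against 4.19%). Without the X window the values were 3.52 and 5.29% (adjusted exact p = 0.231). Ser2P was present at 1.09% (0.524 to 2.00) and 2.80% (adjusted exact p = 0.00682), lower in 4 of 4 windows. This call was lost with the first 50% of entries (odds ratio 0.954, adjusted exact p = 1), the wider 50% of each list (odds ratio 0.717, 0.739), and borders 500 kb nearer (0.0507) or farther (0.112). ASH2 without an active mark was present at 26.5% of H3K27me3 members and 22.2% in the rest (odds ratio 1.18, adjusted exact p = 0.0368). It was above the rest on 2L (37.7 against 31.1%) and X (25.2 against 15.8%) and below it on 3L (26.9 against 28.9%) and 3R (13.2 against 18.9%). Without the X window the odds ratio was 0.983, on the other side of 1.

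Joined over gaps of up to 5000 bp, H3K27me3 peaks formed 255 domains in the windows, which took up 17.7% of the bases, beside 28.2% in the rest. On 2L, 3L and 3R domains took up 9.01, 15.8 and 16.1%, against 20.6, 23.6 and 32.9%, while on X they took up 35.9 against 34.5%. Domains longer than 20 kb numbered 16, of which 4 were on 2L, 5 on 3L, 1 on 3R and 6 on X, a density of 2.22 per Mb beside 3.50 in the rest. Joined over gaps of up to 1000 bp, 1 domain of that length was left in the windows, 0.138 per Mb against 1.26, and over 10000 bp there were 20, or 2.77 against 5.04 per Mb. The longest in the windows, a span of 65475 bp on 3R from 647983 to 713457, had 29 H3K27me3 peaks over 82.7% of its bases and contained 25 ASH2 peaks, 2 H3K4me3 peaks and no H3K36me3 or polymerase peak. The X domain of 60173 bp, from 21088371 to 21148543, had 38 peaks over 16.2% of its bases, with 15 ASH2 peaks and no peak of an active mark. On 2L the longest measured 50696 bp, from 21990919 to 22041614, and held 31 ASH2, 1 H3K4me3, 2 Ser2P and 1 Ser5P peaks. On 3L the longest measured 36882 bp, from 22100297 to 22137178, and held 11 ASH2 peaks, 1 H3K4me3 peak and 1 Ser5P peak. H3K36me3 peaks were absent from all 4 of these domains.

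Among the widest peaks of the windows were several that held polymerase and histone marks together. The widest H3K4me3 member, with 2964 bp on 3R from 909893 to 912856, was the third widest on its arm and was covered over 89.7% by Ser5P and over 61.3% by Ser2P, with no H3K36me3. The widest Ser5P member, with 4058 bp on 3R from 255861 to 259918, lay under H3K36me3 over 86.8% and under Ser2P over 81.8% of its bases. On X the widest Ser5P member, with 3820 bp from 21194620 to 21198439, lay under H3K36me3 over 77.9% and under H3K4me3 over 47.4% of its bases, with no Ser2P. The widest Ser2P member of X, from 21224983 to 21228621 (3639 bp), lay wholly inside the widest H3K36me3 member of that window, from 21224907 to 21228841 (3935 bp). The widest ASH2 members, on 3L from 22863763 to 22865886 (2124 bp) and on X from 21221016 to 21223123 (2108 bp), were covered over 89.5 and 42.3% by H3K4me3 and over 79.0 and 44.2% by Ser5P. The widest H3K27me3 member, on 3R from 683558 to 690453 (6896 bp), was the sixth widest on its arm, held 6.09% of ASH2 and met no active list. The widest Ser2P member of 2L, from 22020682 to 22023152 (2471 bp), lay wholly inside an H3K27me3 peak and met no other list. No gene is named for these positions and no sequence is shown, since no annotation or genome of this build was used here.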

How the data were processed

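Peak lists of 6 ChIP-seq libraries from wing imaginal discs were used, with 1 library per target assigned by the antibody in its label. The authors deposited start and end positions only, on dm3 per the submitters' processing notes. How reads were aligned, which caller was run and at what threshold is not given in the sources used here. Starts were raised by 1 bp so that positions count from 1, entries with equal start and end count as 1 bp in overlaps, and the arm end is the last peak end of any list. The members and the alternatives were chosen with earlier results of these data known.

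Overlap was at least 1 bp. Densities, cover and widths have no test. Shares in the windows and in the rest of the 4 arms were compared with an exact conditional Mantel-Haenszel test stratified by arm, two-sided, adjusted by Benjamini-Hochberg over 30 pairs or 7 combinations, threshold 0.05, with exact (Clopper-Pearson) 95% intervals (Python 3.11.15, SciPy 1.17.1). The test was tried on simulated shares of independent peaks, which cannot show how it behaves where neighbouring peaks depend on each other. Intervals cover counting only, and depth is unknown. Named positions are the widest and innermost peaks of each list, the longest H3K27me3 domain and the longest stretch without a peak in each window, of which some are printed. A gene table of a release after dm3 was left unused.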

Additional observations from a re-analysis of the deposited data

How the results depend on the processing

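The share of ASH2 peaks without any other list and the share at active marks without H3K27me3 kept their direction and passed the exact test under all 14 alternatives, with odds ratios of 1.72 to 2.03 and 0.524 to 0.650 when each window was left out in turn. None of the alternatives adjusts for the lower base cover of the other lists in the windows. With the borders 500 kb nearer the centromere, density ratios were 0.885 for ASH2, 0.456 for H3K27me3 (cover 0.318) and 0.358 for Ser2P, and H3K27me3 peaks without another list passed (odds ratio 0.739). With the borders 500 kb farther away they were 0.695 for H3K4me3, 0.740 for H3K27me3, 0.685 for H3K36me3 and 0.610 for Ser2P, the H3K36me3 width difference was -153.5 bp, and H3K27me3 peaks with ASH2 alone (1.11) or any active mark (0.805) did not pass. Among the first 50% of entries the density ratio was 0.283 for H3K27me3 (cover 0.335) and 0.515 for Ser5P, the width difference was -28 bp for ASH2 and turned to 7 bp for H3K27me3, and 3 of 30 pairs passed in place of 9. There the odds ratios were 0.167 for ASH2 with both kinds of mark, 0.972 for H3K27me3 with ASH2 alone, on the other side of 1, and 0.865 for H3K27me3 with any active mark, and none passed. Among the wider 50% of each list 2 pairs passed, density ratios were 0.630 for H3K4me3, 0.521 for H3K27me3 and 0.812 for Ser5P, and width differences were -37.5 bp for ASH2, 4.5 bp for H3K4me3, -99 bp for H3K27me3 and -16.5 bp for Ser5P, a change of sign. The odds ratios 0.419 (ASH2 with both), 1.12 (H3K27me3 with ASH2 alone) and 0.806 (H3K27me3 with any active mark) did not pass there. Both settings leave fewer peaks to test; otherwise the cause was not tested. With peaks of at least 100 bp the H3K27me3 width difference was -55 bp. Keeping the left-out stretch of 2L gave H3K27me3 a density ratio of 0.720 and a width difference of -8 bp, and ASH2 with H3K27me3 alone an odds ratio of 0.904 that did not pass.

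Leaving out each window in turn gave density ratios of 0.905 to 1.02 for ASH2, 0.485 to 0.631 for H3K4me3, 0.540 to 0.696 for H3K27me3, 0.392 to 0.616 for H3K36me3, 0.385 to 0.523 for Ser2P and 0.543 to 0.700 for Ser5P. ASH2 was above 1 without 3L. H3K36me3 was highest without 3L and lowest without 3R. The H3K27me3 width difference was -44 to -19 bp, and 7 to 12 pairs passed. Odds ratios were 0.555 to 0.872 for ASH2 with H3K27me3 alone (not passing without 2L), 0.983 to 1.38 for H3K27me3 with ASH2 alone (not passing without 2L or X) and 0.488 to 0.719 for H3K27me3 with any active mark (not passing without X). On 3R the ASH2 density ratio was 0.939 with the border nearer the centromere. Other overlap rules, the far 1 Mb left out and pooled windows in Fisher's exact test kept the direction and the side of the threshold of the 7 combinations, and domain gaps of 1000 and 10000 bp kept the direction of the share of bases in domains. Calls of single pairs moved more: over 30 pairs and 14 alternatives 28 were lost and 16 gained. A partner within 500 bp lost H3K4me3 with ASH2 (adjusted exact p = 0.721), H3K4me3 with Ser5P and H3K36me3 with Ser5P, at least 50% of the peak covered lost H3K4me3 with ASH2 (0.058), and without the far 1 Mb H3K4me3 with H3K36me3 passed (0.035). No paired analysis was possible because each target has 1 library.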

Other observations

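Stretches without a peak of any list were longer near some centromeres. The longest in the 2L window ran from 21401406 to 21573422 (172017 bp) and that in the X window from 21682872 to 21801547 (118676 bp). Both exceeded every such stretch in the rest of their arms, where the longest had 94516 and 73601 bp. On 3L the longest, from 24379793 to 24438778 (58986 bp), was exceeded by 4 in the rest of the arm, and on 3R the longest had 22397 bp and was exceeded by 70. The median stretch was 942 bp on 2L, 1006 bp on 3L, 746 bp on 3R and 902 bp on X, against 595, 637, 622 and 681 bp. Whether these stretches hold assembly gaps or repeats where reads cannot be placed was not examined.

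The H3K27me3 members of 3 windows stood late in the deposited order of their arm. Their median place was 67.4% of the way down the arm's entries on 2L, 74.4% on 3L and 71.5% on X, and 49.7% on 3R. Of the X members 0 of 321, and of the 3L members 1 of 308, were among the first 10% of entries, whereas 26 of 121 (21.5%) on 3R were. What the order stands for is not given. H3K4me3 members stood at 50.7% on 2L, 69.7% on 3L, 43.9% on 3R and 31.1% on X, and ASH2 members at 46.7, 57.1, 38.1 and 59.5%.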
